A study of Mus musculus with 32 samples.

Results

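The clonotypes described here are rearranged heavy chain genes of mouse pro-B cells that use a V gene of the IGHV5 family, the family that the Vh7183 primer amplifies, other than IGHV5-2. A clonotype is a distinct CDR3 nucleotide sequence with its V, D and J genes, and a clonotype was a member when its first V hit was an IGHV5 gene and not IGHV5-2. There were 134 such clonotypes with 11810 reads, out of 908 productive clonotypes in the series and 168 (13337 reads) in the libraries made with the Vh7183 primer. They made up 79.8% of the clonotypes and 88.6% of the reads of those libraries, and 0 were found in the libraries of the other V families. They used 8 genes: IGHV5-4, IGHV5-6, IGHV5-9, IGHV5-12, IGHV5-9-1, IGHV5-15, IGHV5-16 and IGHV5-17, with IGHV5-15 in 1 clonotype. Counts of IGHV5 clonotypes below leave IGHV5-2 out.

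Genomic DNA came from untreated pro-B cells (B220+ CD43+ IgM- CD25-) sorted from the bone marrow of mice aged 8 weeks. The groups were 5 control mice, labelled WT (mice 1418, 1432, 1484, 1485 and 1536), and 5 Setd2 knockout mice, labelled KO (mice 1421, 1423, 1464, 1487 and 1500). Each mouse gave 1 Vh7183 library, all in 1 sequencing batch. The labels name neither the strain nor how the deletion was driven, the amplicons do not measure Setd2, and the p-values below measure the spread between these mice.

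Pro-B cells build the heavy chain variable region by joining a D to a J gene and then a V gene to the DJ unit. The RAG enzyme cuts at the edge of each segment, nucleases trim the ends, and terminal transferase adds bases that no segment encodes, so that the CDR3, the loop that spans the joins, is the most variable stretch of the antibody and lies at the centre of the antigen binding site. The IGHV5 genes lie at the D-proximal end of the V gene cluster, with IGHV5-2 nearest to the D genes. SETD2 is the methyltransferase that trimethylates histone H3 on a lysine over the bodies of transcribed genes. The comparison asks how the joins of these V genes looked with and without it.

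All CDR3 sequences start with the conserved cysteine codon, and the bases that the V gene contributes tell some of the genes apart. These were the most common first 9 bases of clonotypes whose V end was not trimmed, with capitals where a base differs from the IGHV5-4 end.
IGHV5-4: tgtgcaaga
IGHV5-6: tgtgcaaga
IGHV5-9: tgtgcaaga
IGHV5-12: tgtgcaaga
IGHV5-9-1: tgtAcaaga
IGHV5-16: tgtgcaaga
IGHV5-17: tgtgcaagG
IGHV5-2: tgtgcaaga
The IGHV5-9-1 end was found in 9 of 9 untrimmed clonotypes and the IGHV5-17 end in 26 of 31. The next base also recurred by gene. With near-identical clonotypes of a mouse counted once, it was g in 22 of 24 untrimmed IGHV5-4 sequences, in 8 of 8 of IGHV5-9-1 and in 7 of 7 of IGHV5-16. It was c in 18 of 21 of IGHV5-6, in 11 of 13 of IGHV5-12, in 5 of 5 of IGHV5-9 and in 9 of 9 of IGHV5-2. For IGHV5-17 it was mixed, with g in 7, c in 6, a in 4 and t in 3 of 20. For the 6 IGHV5-17 sequences with c the deposited positions count this base as part of the V alignment; elsewhere the counts of inserted bases given below can include it. Where the recurring base comes from was not tested.

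The largest IGHV5 clonotype of every mouse used IGHJ4, the J gene of the PCR primer, which took 92.2% of all IGHV5 reads. These clonotypes are shown because each holds more reads than any other IGHV5 join of its library. Capitals mark the bases between the segments as the deposited positions place them, and reads are the reads of the clonotype in its library.
IGHV5-17, WT mouse 1418, 424 reads: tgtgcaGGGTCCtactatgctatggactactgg
IGHV5-6 with IGHD3-1, WT mouse 1432, 145 reads: tgtgcaagaCGccgagGggactactgg
IGHV5-17 with IGHD4-1, WT mouse 1484, 129 reads: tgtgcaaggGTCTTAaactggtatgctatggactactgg
IGHV5-4 with IGHD1-1, WT mouse 1485, 609 reads: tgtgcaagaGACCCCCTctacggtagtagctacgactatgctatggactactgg
IGHV5-4 with IGHD2-7, WT mouse 1536, 226 reads: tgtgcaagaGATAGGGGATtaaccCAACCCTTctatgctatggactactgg
IGHV5-6 with IGHD2-6, KO mouse 1421, 376 reads: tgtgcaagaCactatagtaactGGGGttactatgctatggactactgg
IGHV5-17 with IGHD2-7, KO mouse 1423, 689 reads: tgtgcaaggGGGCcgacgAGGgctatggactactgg
IGHV5-17 with IGHD2-6, KO mouse 1464, 278 reads: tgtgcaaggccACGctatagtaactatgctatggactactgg
IGHV5-12 with IGHD2-6, KO mouse 1487, 1586 reads: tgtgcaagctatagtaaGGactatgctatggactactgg
IGHV5-4 with IGHD4-1, KO mouse 1500, 101 reads: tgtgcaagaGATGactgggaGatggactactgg
The first of these had no D hit. All end in the IGHJ4 stretch ggactactgg, whose last codon is the conserved tryptophan, and they differ in how much of the J gene stands before it. The KO mouse 1487 join had 2 inserted bases, the fewest of the 10, and the WT mouse 1536 join had 18, the most.

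The libraries were small. Productive reads ran from 1033 to 1457 in WT and from 387 to 3045 in KO mice, and IGHV5 clonotypes numbered 9 to 28 and 8 to 14. Of the 134 clonotypes, 45 had 2 to 9 reads. The libraries of WT mice 1432 and 1484 stood apart, since they held 9 IGHV5 sequences in common, of 6 genes, and 3 further pairs that differed at 1 base. The 9 identical ones were 47.4% of the clonotypes and 61.5% of the IGHV5 reads of mouse 1432, and 32.1% and 37.1% of those of mouse 1484. The only other pair of mice to share a sequence was KO 1423 and 1500, with 1 sequence at 2 and 97 reads, and 43 of the 45 pairs shared none. Examples of the sequences common to WT mice 1432 and 1484 follow, with inserted bases in capitals.
IGHV5-9 with IGHD2-6, 134 and 107 reads: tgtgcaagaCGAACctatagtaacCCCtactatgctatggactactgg
IGHV5-9-1 with IGHD1-1, 98 and 78 reads: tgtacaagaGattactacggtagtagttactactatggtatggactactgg
IGHV5-12 with IGHD2-4, 70 and 33 reads: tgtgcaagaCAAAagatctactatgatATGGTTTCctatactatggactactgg
IGHV5-4 with IGHD2-3, 48 and 55 reads: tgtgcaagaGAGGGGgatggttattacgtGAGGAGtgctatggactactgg
The IGHV5-12 and IGHV5-4 sequences each hold 12 inserted bases. Whether such sequences arose in both mice was not tested, and differences between genotypes that moved by over 1.5 times without them and KO mouse 1500 are given both ways in the account of each measure or with the other alternatives.

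IGHV5-17, the farthest of these genes from D, averaged 21.7% ± 20.5 of the clonotypes of a library over both genotypes (SD, n = 10 mice), the highest mean. In the 5 WT mice alone IGHV5-4 (17.7% ± 6.47) and IGHV5-6 (15.9% ± 6.68) stood above IGHV5-17 (14.4% ± 3.67). With near-identical sequences counted once, IGHV5-4 had 27 and IGHV5-17 25. Over both genotypes IGHV5-4 followed IGHV5-17 with 19.7% ± 15.1, IGHV5-6 with 13.6% ± 8.78 and IGHV5-12 with 12.2% ± 10.6. IGHV5-2 stood at 11.1% ± 6.85, and below it were IGHV5-16 with 4.15% ± 3.80, IGHV5-9-1 with 3.81% ± 6.35 and IGHV5-9 with 3.72% ± 4.94. No 2 neighbours in this order differed by more than the SD of their difference over mice. The nearest was IGHV5-2 over IGHV5-16, by 6.92 points with an SD of 6.94, higher in 7 of 10 mice and equal in 2. That SD is the spread between mice and not the error of a mean, and the order was not tested. The order of the shares was not the order along the locus, which in the RefSeq gene table runs from D as IGHV5-2, IGHV5-4, IGHV5-6, IGHV5-9, IGHV5-12, IGHV5-9-1, IGHV5-15, IGHV5-16 and IGHV5-17.

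**Figure D1:**
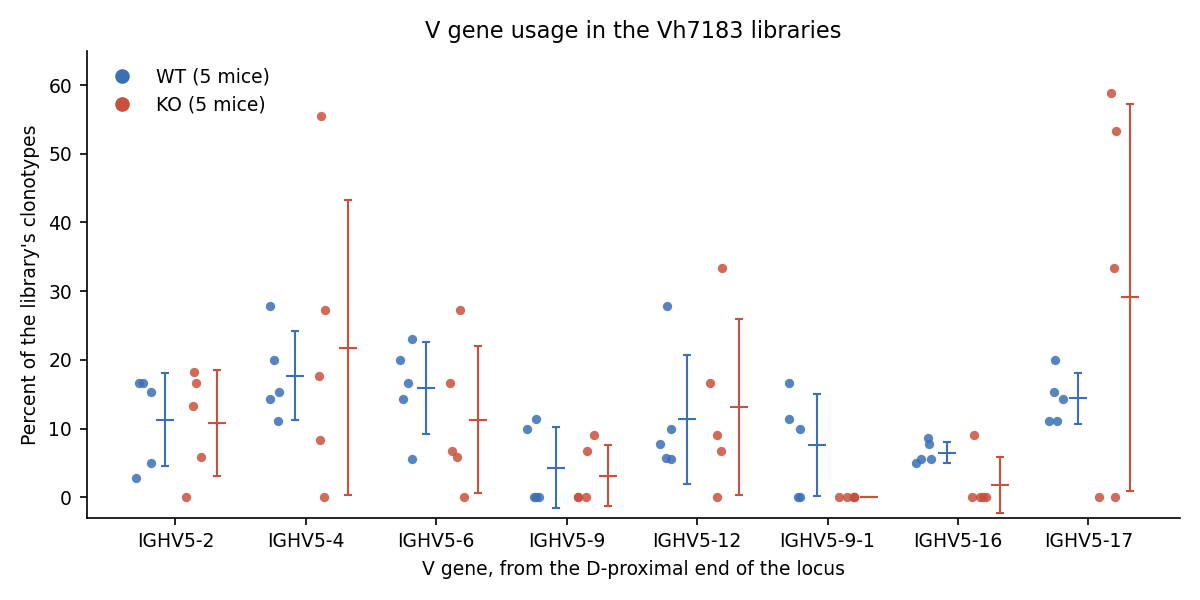
Share of each V gene among the productive clonotypes of a Vh7183 library, in percent. Each point is 1 mouse, bars are the mean and SD of 5 WT or 5 KO mice, and genes stand in their order along the locus. KO points spread from 0 to 58.8% for IGHV5-17, where the WT points lie between 11.1% and 20%.

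No V gene passed the test of usage between KO and WT mice. Among the 5 genes with at least 10 clonotypes, 4 of them IGHV5 genes other than IGHV5-2, edgeR's quasi-likelihood test called 0 at an adjusted p of 0.05 (0% of the genes tested, 0 at an unadjusted p under 0.05), and DESeq2 called 0 as well. IGHV5-17 made up 11.1%, 20%, 14.3%, 15.4% and 11.1% of the clonotypes of the WT mice in the order given above. It made up 0%, 58.8%, 53.3%, 33.3% and 0% of those of the KO mice. The KO values therefore lay on both sides of all WT values: 3 above and 2 at 0. The log2 ratio of KO over WT was 1.12 (SE 0.77, adjusted p = 0.782 in edgeR). With near-identical sequences counted as 1 it was 0.48, without KO mouse 1423 it was 0.73, and with reads in place of clonotypes 0.25.

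The other 3 tested genes gave log2 ratios nearer 0 in edgeR's test. IGHV5-4 stood at 11.1%, 20%, 14.3%, 15.4% and 27.8% in WT mice and at 27.3%, 17.6%, 0%, 8.33% and 55.6% in KO mice, a log2 ratio of 0.14 (SE 0.76). IGHV5-6 ranged from 5.56% to 23.1% in WT and from 0% to 27.3% in KO mice, a log2 ratio of -0.47 (SE 0.70). With DESeq2 that ratio was -1.15, further from 0 than the 0.89 of IGHV5-17, with TMM factors -0.90, without KO mouse 1421 -0.97 and without mice 1432, 1484 and 1500 -0.16. IGHV5-12 ranged from 5.56% to 27.8% and from 0% to 33.3%, a log2 ratio of 0.05 (SE 0.74). All 3 had an adjusted p of 0.951 in edgeR, and those of IGHV5-4 and IGHV5-12 changed direction with DESeq2 and with TMM factors. Groups overlapped for each of them, and for each 1 KO mouse had no clonotype: mouse 1464 for IGHV5-4, mouse 1500 for IGHV5-6 and mouse 1423 for IGHV5-12.

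The rarer genes fell below the minimum for the test. IGHV5-9-1 had 0, 2, 4, 0 and 3 clonotypes in the WT mice, 9 in all and 8.65% of the 104 WT clonotypes. It had 0 of 64 KO clonotypes, which allows a share of up to 4.69%, counting error only. WT mice 1418 and 1485 had none either. The difference was not called when all genes were tested without a minimum (12 genes, 0% called by edgeR and 1 at an unadjusted p under 0.05, adjusted p = 0.0783 for IGHV5-9-1). With reads in place of clonotypes it was the only gene called, 8.33% of the 12 tested (adjusted p = 0.0363 in edgeR). Of its 9 clonotypes, 6 came from WT mice 1432 and 1484, the libraries with sequences in common. Without these it rested on 3 clonotypes of WT mouse 1536, with 120, 2 and 2 reads.

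IGHV5-16 was found in every WT mouse, with 1, 1, 3, 1 and 1 clonotypes or 5.56%, 5%, 8.57%, 7.69% and 5.56%. Among KO mice it was found in mouse 1421 only, where 1 clonotype made up 9.09%. Without a minimum its log2 ratio was -1.70 (SE 1.11, adjusted p = 0.386 in edgeR). IGHV5-9 had 6 WT clonotypes, all in mice 1432 and 1484, and 2 KO clonotypes in mice 1421 and 1464. The single IGHV5-15 clonotype was in WT mouse 1418, with 13 reads.

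Each gene's profile over the 10 mice was set against those of the 5 genes with at least 10 clonotypes. The usage of IGHV5-4 was most like that of IGHV5-12, with a Bray-Curtis similarity of 0.681 (1 for equal profiles, 0 for profiles that share no mouse). Among these 5, IGHV5-6 was most like IGHV5-2 (0.752) and IGHV5-17 most like IGHV5-2 (0.568). Of the rarer genes, IGHV5-16 reached 0.759 with IGHV5-6. IGHV5-9 and IGHV5-9-1, each in few mice, reached only 0.501 with IGHV5-6 and 0.314 with IGHV5-4. These values describe shares that sum to 100% within a library and carry no test.

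IGHV5 clonotypes other than IGHV5-2 did not differ in their share of the library between KO and WT mice beyond the spread between mice. The WT shares were 77.8%, 95%, 80%, 69.2% and 72.2% of clonotypes, and the KO shares were 81.8%, 82.4%, 73.3%, 75% and 88.9%. The means were 78.9% ± 10 and 80.3% ± 6.26 (SD, n = 5 each), a difference of 1.43 points with a 95% interval from -12.2 to 12.6 (exact permutation p = 0.794), or 5.05 points without mice 1432, 1484 and 1500. By reads, KO mouse 1421 was apart with 43.1%, where the other 9 mice had at least 78.2%; an IGHV5-2 clonotype of 622 reads was in that library.

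KO mice had fewer IGHV5 clonotypes, but not beyond the spread between mice. All productive clonotypes were fewer as well, 104 in WT and 64 in KO libraries, against 83 and 51 IGHV5 clonotypes. These totals include the IGHV5 clonotypes themselves and so are no separate comparison. Among the V genes outside the group, IGHV5-2 had 10 WT and 7 KO clonotypes, IGHV6-3 5 and 1, and IGHV7-3 3 and 0. IGHV6-6 went the other way with 3 and 5. By mouse, IGHV5 clonotypes numbered 14, 19, 28, 9 and 13 in WT mice and 9, 14, 11, 9 and 8 in KO mice. The mean log2 number was 3.95 ± 0.62 in WT and 3.32 ± 0.32 in KO mice, a difference of -0.63 (95% interval -1.36 to 0.05, exact permutation p = 0.103, 0.310 after Benjamini-Hochberg adjustment over 12 measures). At an equal depth of 749 reads, which leaves out KO mouse 1500, the difference was -0.57. Without WT mouse 1484 it was -0.41, and without WT mice 1432 and 1484 and KO mouse 1500 it was -0.16.

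Many KO clonotypes were close copies of each other. When clonotypes of a mouse with the same V gene, J gene and length were linked at up to 2 differing bases, the 51 KO clonotypes formed 35 sets and the 83 WT clonotypes formed 79. Sets of several sequences held 24 KO clonotypes (8 sets, in 4 of the 5 KO mice) and 7 WT clonotypes (3 sets). With each set counted as 1, the difference in log2 number grew to -1.09 (exact permutation p = 0.0238, adjusted p = 0.286 over the 12 measures). Whether the copies are errors of amplification and sequencing or sequences of the cells was not tested.

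The largest set was in KO mouse 1423. It had 9 sequences of 42 bases that joined IGHV5-17 to IGHD2-6 and IGHJ3, with 338 reads in all or 21.5% of the library. They differed at 8 positions, and the 2 most distant ones by 5 bases. Capitals mark bases that differ from the most read sequence, which stands first.
91 reads: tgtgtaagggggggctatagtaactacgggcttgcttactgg
72 reads: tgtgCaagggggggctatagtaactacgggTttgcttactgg
43 reads: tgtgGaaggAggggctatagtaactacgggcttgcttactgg
43 reads, another sequence: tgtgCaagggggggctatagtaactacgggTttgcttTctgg
35 reads: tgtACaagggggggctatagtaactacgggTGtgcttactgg
22 reads: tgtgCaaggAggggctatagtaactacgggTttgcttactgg
15 reads: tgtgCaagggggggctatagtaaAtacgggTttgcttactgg
13 reads: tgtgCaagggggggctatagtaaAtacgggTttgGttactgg
4 reads: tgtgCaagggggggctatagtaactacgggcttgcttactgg
The second sequence had 79.1% of the reads of the first. In the other 10 sets the second sequence had between 2.90% and 42.9% of the reads of the first, and the sequences of a set differed by 1 or 2 bases.

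J gene use varied widely between mice. Over both groups, 72 of the 134 clonotypes (53.7%) but 92.2% of the reads used IGHJ4, the J gene at which the PCR primer lies. IGHJ2 had 34 clonotypes and 2.31% of reads, IGHJ3 24 and 5.31%, and IGHJ1 4 and 0.152%. The median was 88 reads for an IGHJ4 clonotype and 4 for an IGHJ2 clonotype. IGHJ4 made up 57.1%, 78.9%, 71.4%, 33.3% and 61.5% of the clonotypes of the WT mice. In the KO mice it made up 11.1%, 28.6%, 36.4%, 22.2% and 87.5%. The means were 60.5% ± 17.4 and 37.2% ± 29.6, a difference of -23.3 points (95% interval -53.6 to 14.5, exact permutation p = 0.175, adjusted p = 0.408). The groups overlapped: KO mouse 1500 was above every WT mouse, and KO mouse 1464 (36.4%) was above WT mouse 1485 (33.3%). Without KO mouse 1500 the difference was -35.9 points (exact permutation p = 0.0238, adjusted p = 0.143). With reads as weights it was -11.0 points, and over clonotypes of at least 10 reads -41.6 points. With near-identical sequences counted as 1 it was -17.05 points (exact permutation p = 0.270). In KO mouse 1423 the 4 IGHJ4 clonotypes formed 3 sets of such sequences, and the 9 IGHJ3 clonotypes formed 1.

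IGHJ3 was the J gene with the higher KO values. It made up 7.14%, 10.5%, 10.7%, 0% and 7.69% of WT clonotypes and 33.3%, 64.3%, 36.4%, 11.1% and 0% of KO clonotypes. In 4 of the 5 KO mice the share was above every WT value, and KO mouse 1500 had no IGHJ3 clonotype. The means were 7.22% ± 4.35 and 29.0% ± 24.9, a difference of 21.8 points that did not pass the test (95% interval -3.65 to 46.8, exact permutation p = 0.0952, adjusted p = 0.310). The 17 KO clonotypes formed 8 sets and the 7 WT clonotypes 7. With each set counted as 1 the difference was 12.6 points (exact permutation p = 0.103). Without KO mouse 1500 it was 29.1 points (exact permutation p = 0.00794, adjusted p = 0.0952), and without KO mouse 1423 it was 13 points. With reads as weights it was 9.59 points, over clonotypes of at least 10 reads 33.5 points, and without mice 1432, 1484 and 1500 it was 31.3 points. By reads, IGHJ3 took 0% to 1.26% in WT mice and 0% to 22.6% in KO mice. Of the 24 IGHJ3 clonotypes 12 joined IGHV5-17, all of them in KO mice, including the 9 near-identical ones of mouse 1423.

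**Figure D2:**
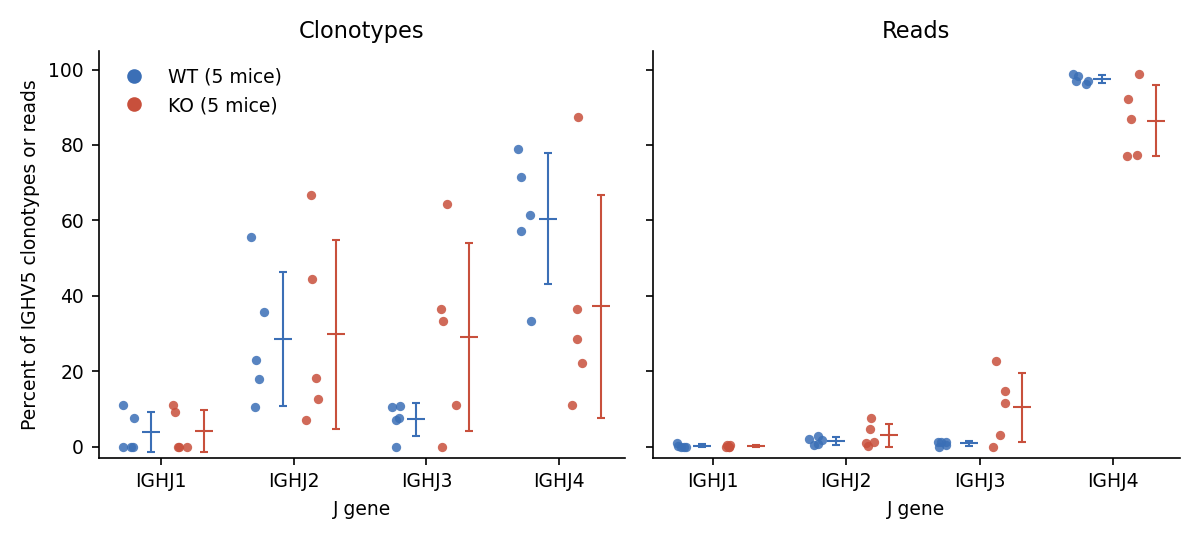
J genes of the IGHV5 clonotypes other than IGHV5-2, as percent of clonotypes (left) and of their reads (right). Each point is 1 mouse, and bars are the mean and SD of 5 WT or 5 KO mice. IGHJ4 holds 96.1% to 98.8% of WT reads and 77.1% to 99% of KO reads, and 4 KO points for IGHJ3 clonotypes lie above the WT points.

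A D gene was found in 118 of the 134 clonotypes: DSP2 (IGHD2) in 56, DFL16 (IGHD1-1) in 40, DQ52 (IGHD4-1) in 15 and DST4 (IGHD3) in 7. DFL16, the D family that leaves the longest segments, made up 66.7%, 31.6%, 38.5%, 66.7% and 25% of WT clonotypes with a D. In KO mice it made up 22.2%, 14.3%, 55.6%, 0% and 0%. In 4 KO mice it was below every WT value, and KO mouse 1464 lay within the WT range. The means were 45.7% ± 19.8 and 18.4% ± 22.9, a difference of -27.3 points that did not pass the test (95% interval -59.5 to 6.63, exact permutation p = 0.0714, adjusted p = 0.310). Leaving out 1 mouse at a time moved it between -36.5 and -22.0 points.

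DSP2 averaged 34.8% ± 20.7 in WT and 52.7% ± 23.0 in KO mice (difference 18.0 points, 95% interval -14.4 to 50.0, exact permutation p = 0.230). WT mouse 1485 had no DSP2 join, and without it the difference was 9.28 points. Without KO mouse 1421 it was 11.7 points, and without mice 1432, 1484 and 1500 it was 35.9 points (exact permutation p = 0.0571). With near-identical sequences counted as 1 it was 13.55 points (exact permutation p = 0.381). Of the 10 DSP2 clonotypes of KO mouse 1423, 9 are near-identical. The share of clonotypes with a D hit was 87.5% ± 12.7 in WT and 82.2% ± 17.8 in KO mice (exact permutation p = 0.619). Retained D bases averaged 14.5 in DFL16 joins, 11.1 in DSP2 joins, 7.20 in DQ52 joins and 6.14 in DST4 joins.

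Partners differed from gene to gene in these clonotypes, with few clonotypes per gene. IGHV5-9-1 joined DFL16 in 6 of 9 clonotypes and IGHJ4 in 7. The DFL16 joins include the join common to WT mice 1432 and 1484, counted in each, and a near-identical copy of it in mouse 1432. They also include a pair of mouse 1484 with the same 13 bases between V and D. IGHV5-12 joined IGHJ4 in 14 of 18. IGHV5-4 joined DSP2 in 12 of 18 WT clonotypes and in 2 of 12 KO clonotypes, while DQ52 was in 1 WT and 6 KO clonotypes, 4 of these in KO mouse 1500. Of the 12 WT clonotypes, 8 are 4 joins found in both mouse 1432 and mouse 1484, 3 of them identical and 1 at a single differing base. The 4 clonotypes of KO mouse 1500 are 2 near-identical pairs. A DQ52 clonotype of KO mouse 1423, with 2 reads, is identical to the one with 97 reads in mouse 1500. IGHV5-17 joined IGHJ3 in 0 of 15 WT and 12 of 22 KO clonotypes. Among these 12 are the 9 near-identical sequences of KO mouse 1423 and a near-identical pair of KO mouse 1464. With near-identical sequences counted once, the 22 KO clonotypes of IGHV5-17 are 10 and the 15 WT clonotypes 15. IGHV5-9 joined IGHJ3 in 1 of 6 WT clonotypes and in both KO clonotypes, and had no IGHJ2 join.

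CDR3 lengths ran from 24 to 69 bases. Over all clonotypes of a gene the mean was 52.7 bases for IGHV5-9-1, 48.0 for IGHV5-9, 45.7 for IGHV5-12, 43.1 for IGHV5-16, 41.8 for IGHV5-17, 41.7 for IGHV5-6 and 41.0 for IGHV5-4. The SD among the clonotypes of a gene was between 7.60 and 11.0 bases. Joins common to WT mice 1432 and 1484 count in each of these mice, as in the 9 clonotypes of IGHV5-9-1. The longest CDR3, of 69 bases, was an IGHV5-9-1 join of WT mouse 1484, with 16 inserted bases and 21 retained D bases (58 reads).
IGHV5-9-1, longest: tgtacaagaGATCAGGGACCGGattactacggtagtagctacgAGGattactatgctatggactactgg
IGHV5-9-1, 2 reads: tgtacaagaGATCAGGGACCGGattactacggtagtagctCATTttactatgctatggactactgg
The second of these, from the same library, has the same 13 bases between V and D.

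**Figure D3:**
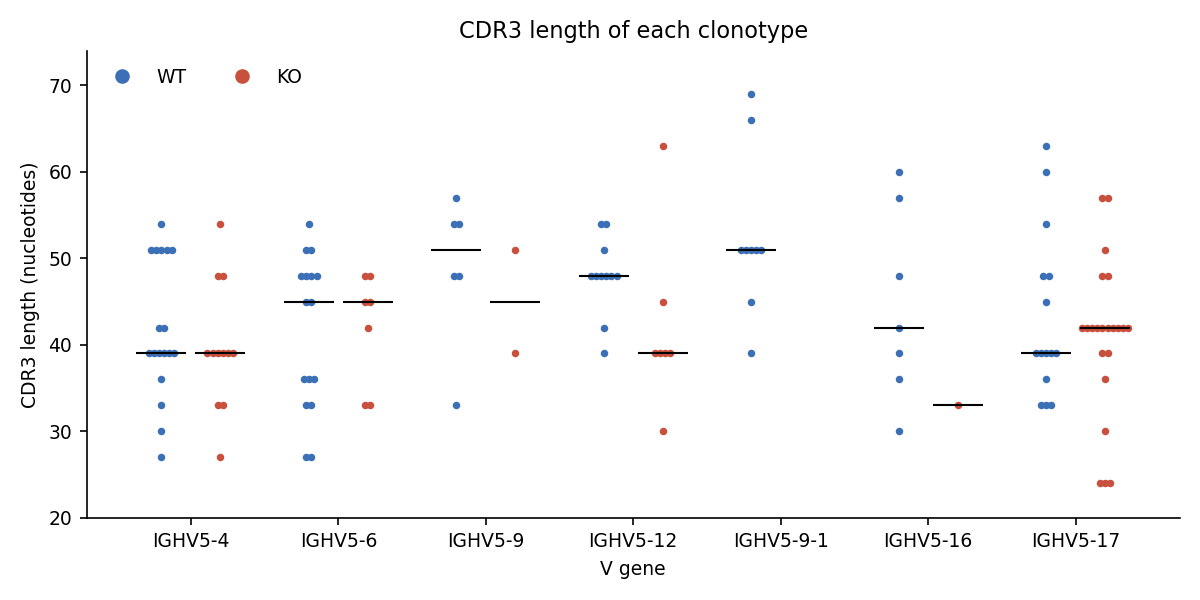
CDR3 length in nucleotides of each clonotype by V gene. Each point is 1 clonotype, blue in WT and red in KO mice, and black lines are medians. The KO column of IGHV5-17 holds 9 near-identical sequences of 42 bases from 1 mouse, and IGHV5-9-1 has no KO point.

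By mouse, mean CDR3 lengths were 43.7, 45.8, 46.0, 44.0 and 42.2 bases in WT mice. They were 45.3, 40.3, 48.0, 32.7 and 36.4 bases in KO mice. KO mice spread more widely, with 3 below every WT mouse and 1 above. The difference of the means was -3.81 bases (95% interval -10.5 to 3.10, exact permutation p = 0.238, adjusted p = 0.408). The difference was -5.67 bases without KO mouse 1464 (exact permutation p = 0.0476, adjusted p = 0.254), -1.84 without KO mouse 1487 (exact permutation p = 0.468) and -1.74 without mice 1432, 1484 and 1500 (exact permutation p = 0.743).

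Inserted bases, the sum between V and D and between D and J or all between V and J where no D was found, were averaged in each mouse. The WT means were 8.21, 6.74, 7.50, 8.78 and 6.92 and the KO means 7.89, 5.21, 9.82, 1.89 and 6.25. KO mouse 1487 had the fewest, 17 bases over 9 clonotypes. The group means were 7.63 ± 0.86 and 6.21 ± 2.98, a difference of -1.42 bases (95% interval -4.85 to 1.64, exact permutation p = 0.373, adjusted p = 0.560). It was -0.34 without KO mouse 1487, -2.32 without KO mouse 1464 (exact permutation p = 0.0635), -0.89 over clonotypes of at least 10 reads and -2.61 with reads as weights (exact permutation p = 0.0159, adjusted p = 0.159). Of the 118 clonotypes with a D, 9 had no base between V and D and 32 had none between D and J. Between 58.8% and 89.0% of the inserted bases of a mouse were G or C, the highest in KO mouse 1423, whose 9 near-identical sequences carry runs of g after the V end.

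V ends were mostly intact by the deposited positions, which were not set against germline sequences. If the recurring base after the called V end belongs to a V gene, its loss is not counted as trimming here. In 115 of the 134 clonotypes no base of the V end was missing, and the mean was 0.24 ± 0.25 trimmed bases in WT and 0.27 ± 0.42 in KO mice (difference 0.025, 95% interval -0.42 to 0.54, exact permutation p = 0.889), and without mice 1432, 1484 and 1500 the difference was 0.0145. IGHV5-6 was untrimmed in 22 of 23 clonotypes and IGHV5-9-1 in 9 of 9, against 5 of 8 for IGHV5-9. The trimmed IGHV5-9 clonotypes include 1 join counted in both WT mouse 1432 and WT mouse 1484, at a single differing base. The untrimmed counts of these genes also hold joins common to both mice. J starts were trimmed more, by 3.26 ± 1.13 bases in WT and 3.63 ± 2.25 in KO mice (difference 0.36, 95% interval -2.20 to 3.23, exact permutation p = 0.754), and 34 of 134 were untrimmed. DQ52 joins had lost 3.43 bases of J on average in WT and 8.62 in KO mice, against 2.81 and 2.11 in DFL16 joins. Of the 8 KO clonotypes with DQ52, 4 are the 2 near-identical pairs of mouse 1500. The one of mouse 1423 is identical to a sequence of these pairs.

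Set against IGHV5-2 within the same mice, these genes showed no difference beyond the spread between mice. The 6 mice with at least 2 clonotypes of both kinds entered the exact sign-flip permutation test, whose smallest p is 0.0312. V end trimming was 0.34 ± 0.40 bases for the IGHV5 genes other than IGHV5-2 and 1.31 ± 1.46 for IGHV5-2, lower in 4 of 6 mice (difference -0.96, 95% interval -3.39 to 1, permutation p = 0.250, adjusted p = 0.844 over 4 measures). Of the IGHV5-2 clonotypes 9 of 17 were untrimmed. CDR3 length differed by 0.57 bases (95% interval -4.83 to 12.0, permutation p = 0.844), IGHJ4 use by 6.40 points (95% interval -66.7 to 61.5, permutation p = 0.781) and inserted bases by 1.06 (95% interval -4.61 to 6.78, permutation p = 0.562). The adjusted p was 0.844 for each of them. The sizes depended on weights and on the mice included. With reads as weights the IGHJ4 difference was 44.5 points (permutation p = 0.1875) and the CDR3 difference 4.18 bases (permutation p = 0.3125). Over the 9 mice with at least 1 clonotype of each kind they were 24.15 points (permutation p = 0.176) and 2.05 bases (permutation p = 0.332).

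Large clonotypes were IGHJ4 joins and used 5 of the 8 genes. IGHJ4, the J gene at which the PCR primer lies, held 92.2% of all IGHV5 reads. What part the primer and the cut of the product had in this was not tested. In 26 cases a clonotype held over 10% of the productive reads of its library, 14 in 4 WT mice and 12 in all 5 KO mice, and 26 of 26 used IGHJ4. IGHV5-12 had 8 of them, IGHV5-4 and IGHV5-17 7 each, IGHV5-6 3 and IGHV5-9 1. IGHV5-9-1, IGHV5-15 and IGHV5-16 had none. WT mouse 1484, the library with the most clonotypes, had no clonotype above 8.85%. The largest of all was the IGHV5-12 join of KO mouse 1487, 52.1% of reads (Wilson 95% interval 50.3% to 53.9%, counting error only).

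**Figure D4:**
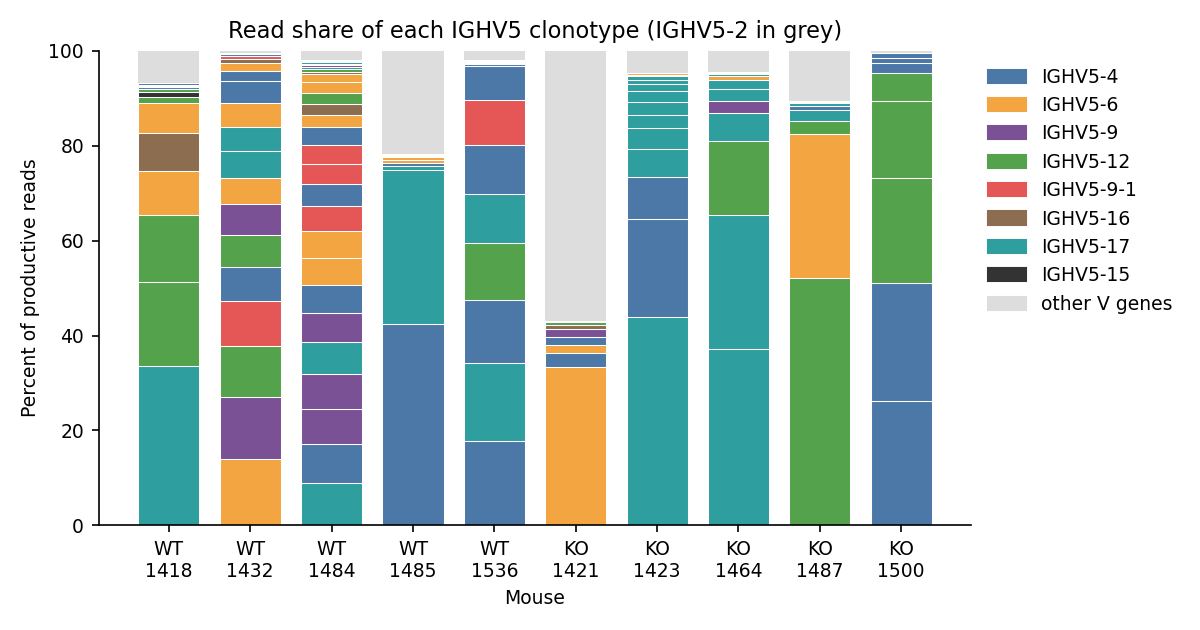
Productive reads of each library by clonotype, in percent. Each block is 1 IGHV5 clonotype coloured by V gene, largest at the bottom, and grey is the reads of all other V genes, IGHV5-2 included. The lowest block is 8.85% to 42.4% in WT mice and 26.1% to 52.1% in KO mice.

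The largest IGHV5 clonotype held 33.5%, 14.0%, 8.85%, 42.4% and 17.9% of the productive reads in WT mice. It held 33.3%, 43.9%, 37.1%, 52.1% and 26.1% in KO mice. The groups overlapped, with 2 KO mice above every WT mouse. The means were 23.3% ± 14.1 and 38.5% ± 9.96, a difference of 15.2 points that did not pass the test (95% interval -5.23 to 34.2, exact permutation p = 0.0873, adjusted p = 0.310). Without WT mice 1432 and 1484 and KO mouse 1500 it was 10.4 points. Out of the reads of all clones of a library it was 11.1 points (exact permutation p = 0.175). By that denominator WT values ran from 5.58% to 22.9% and KO values from 12.3% to 44.5%. Out of the reads of each sample's clone list the difference was 11.9 points (exact permutation p = 0.143).

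**Figure D5:**
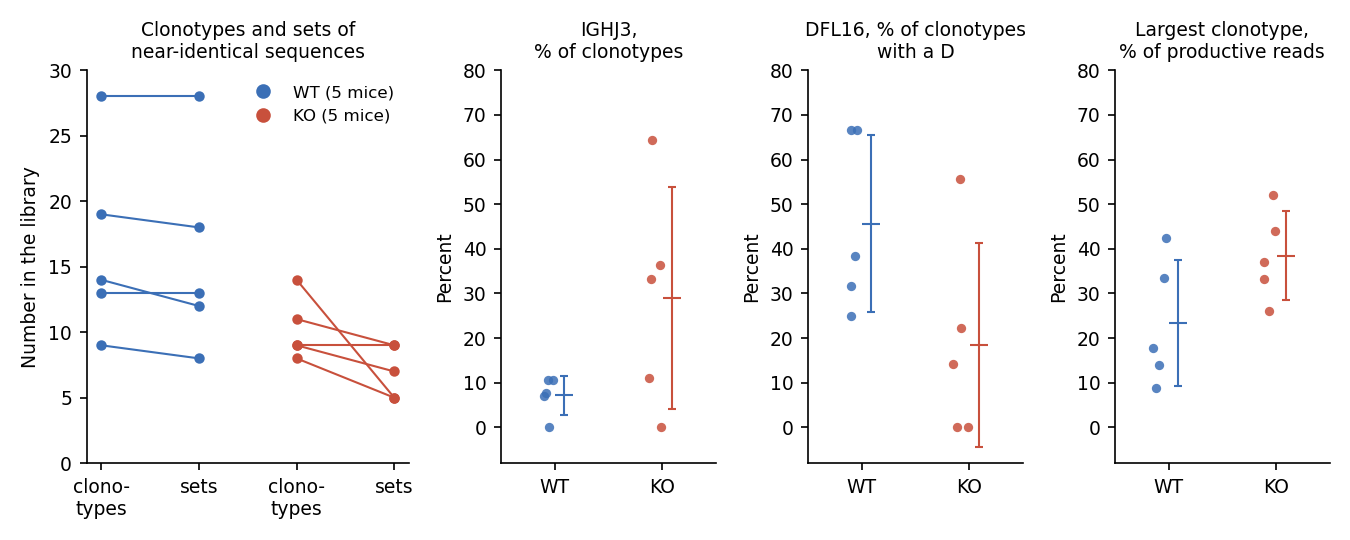
Left, the number of IGHV5 clonotypes other than IGHV5-2 and of sets of near-identical sequences in each library, 1 line per mouse. Right, IGHJ3 among clonotypes, DFL16 among clonotypes with a D, and the largest clonotype among productive reads, in percent, with 1 point per mouse and bars for mean and SD of 5 mice. KO mouse 1423 falls from 14 clonotypes to 5 sets, and each right panel has overlapping groups.

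Across the 12 measures compared between genotypes 0 passed, the lowest adjusted p being 0.310, and the smallest p the design of 5 against 5 mice allows is 0.00794.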

How the data were processed

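Each Vh7183 amplicon ran from a V family primer to JH4 on genomic DNA, a 500 bp product was cut from a gel, and 150 bp reads were made on a MiSeq, per the labels' protocols, which also name poly-A selection and an RNA kit. The authors deposited a series table of productive clonotypes of at least 2 reads, with read counts per clonotype (not normalized), a fraction column (reads of a clonotype over those of all clones), and other columns of positions in the CDR3. MiXCR is named in the series title; for its version, settings and reference build nothing was given in the sources used here. Sequenced reads per library were 7789 to 50275. The table's columns of part sequences are displaced by 1 base against its position columns (908 of 908 clonotypes), so positions were used, and D end trimming was not used. Aligned bases past a segment's reference end (8 V ends by up to 4 bases, 22 J starts by up to 6) count as neither trimmed nor inserted. The clone lists of single samples held 113 of the 134 clonotypes. Of the table, 2 libraries were left out, 1 that matched no sample and 1 repeat run of another amplicon.

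For V gene usage, the quasi-likelihood test of edgeR 4.0.16 (R 4.3.3, limma 3.58.1) was run on clonotypes per gene and mouse, with total clonotypes as offset, for genes with at least 10 clonotypes; DESeq2 1.42.0 was the alternative. Measures were compared by two-sided exact permutation over mice, with 95% intervals from inverting that test and Benjamini-Hochberg adjustment over the 12 or 4 measures; the threshold was 0.05. The edgeR and permutation code was tested on simulated data. Intervals of shares cover counting error only, since reads carry no molecular identifiers. Python 3.11.15, numpy 2.4.6, pandas 2.3.3, scipy 1.17.1 and matplotlib 3.10.9 were used. Gene names and order came from the RefSeq table, in which all 8 genes matched. The genes, lists and tests were chosen with earlier results of these data known. The rule for names took every gene of the group, IGHV5-2, all J genes and D families, each clonotype over 10% of productive reads and each sequence found in over 1 mouse; other sequences shown were chosen after their values were seen. Alternatives were read weights, at least 10 reads, mice with at least 5 clonotypes, leaving out mice, and, chosen after the data were seen, near-identical sequences counted as 1, sequences of 2 mice counted in 1, and the fraction column's total as denominator.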

Additional observations from a re-analysis of the deposited data

Results flagged for a closer look

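Among 37 groups of 5 mice checked with Dixon's test for a value far from the others, 3 had one, and chance alone marks about 1 group in 20. Mean V end trimming was 1 base in KO mouse 1464, where the next highest KO mouse had 0.21. IGHV5-12 made up 27.8% of the clonotypes of WT mouse 1418, where the next highest WT mouse had 10%. IGHV5-16 made up 9.09% in KO mouse 1421 and was not found in the other 4 KO mice; with 4 values at 0 any other value meets the criterion, so the rate of 1 in 20 does not apply to it. The reason for these values was not tested.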

How the results depend on the processing

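None of the measures and no V gene passed the threshold under the alternatives run, except IGHV5-9-1 when reads replaced clonotypes, which gave 1 called gene. Of 134 values under alternatives other than leaving out a mouse, 115 kept their direction and side of the threshold. Another 18 changed direction, none of them past the threshold, and the cause was not tested. Some of the 115 could not change. Every mouse had at least 8 IGHV5 clonotypes, so the minimum of 5 left out no mouse and repeated the main values. The comparison with IGHV5-2 held none of the libraries left out for shared sequences, so that alternative repeated its main values too. The KO minus WT difference in the share of the library became -8.85 points with reads as weights, -3.73 with at least 10 reads and -2.56 with near-identical sequences counted as 1. The share with a D hit became 1.55 points higher with reads as weights and 5.56 without the libraries with shared sequences. With reads as weights V end trimming became -0.10 bases. J start trimming became -0.28 with reads as weights, -0.42 with at least 10 reads and -0.40 without the libraries with shared sequences. The log2 ratio of IGHV5-12 became -0.66 with DESeq2, -0.38 with TMM factors and -0.90 without the libraries with shared sequences. That of IGHV5-4 became -0.67 with DESeq2, -0.38 with TMM factors, -0.52 with reads, -0.50 without the libraries with shared sequences and -0.46 with at least 10 reads. That of IGHV5-6 became 0.12 with reads. Leaving out 1 mouse at a time moved the share of the library between -0.97 and 5.47 points (-0.72 without KO mouse 1500 and -0.22 without WT mouse 1536), V end trimming between -0.16 and 0.13 bases (-0.0083 without WT mouse 1432 and -0.035 without WT mouse 1485) and J start trimming between -0.45 and 0.95 (-0.034 without WT mouse 1485). Against IGHV5-2 it moved CDR3 length between -1.71 and 1.66 bases, IGHJ4 between -4.63 and 21.0 points and inserted bases between -0.087 and 2.19. The log2 ratio of IGHV5-12 moved between -0.50 and 0.60 (-0.24, -0.011, -0.086 and -0.12 without WT mice 1484, 1485 and 1536 and KO mouse 1487) and that of IGHV5-4 between -0.42 and 0.50 (-0.021 without KO mouse 1421). No paired analysis was possible because WT and KO libraries came from different mice and the labels give no replicate numbers. Depth limits what can be seen: 45 of the 134 clonotypes had under 10 reads, and a gene absent from a library of 9 clonotypes may still be in its cells.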
